A study of Mus musculus with 6 samples.

Results

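The genes described here encode the protein subunits of the cytosolic ribosome, the particle that translates nuclear-encoded mRNAs. They were taken by symbol: Rps or Rpl followed by a number (with an optional a, or for Rps also x or l), Rplp0, Rplp1, Rplp2 and Rpsa, leaving out Rps2 and every copy named with -ps, with at least 10 reads in at least 2 of the 6 libraries. Of the 54134 entries in each deposited table, 77 symbols matched and 76 were kept, 31 of the small (40S) subunit and 45 of the large (60S) subunit. The symbol left out by the read minimum was Rpl24, with between 5 and 10 reads in each library. Just inside the minimum were Rpl35, with 69 reads over all libraries, Rpl23a with 85, Rps23 with 218 and Rps13 with 248. All 76 members were among the 18705 genes that passed the low-count filter and entered the test, so no member was lost there. The annotation gives 75 of them as protein coding and Rps4l, on chromosome 6, as a transcribed processed pseudogene. Rps3a1 and Fau, which also encode ribosomal subunits, have symbols that the rule does not take.

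The libraries came from prefrontal cortex (PFC) tissue of 6 mice aged 6 to 8 weeks, 1 library per mouse and 2 mice per group. The groups were heterozygous Shank3 +/∆C mice given GSK-LSD1, an inhibitor of the histone demethylase LSD1, Shank3 +/∆C mice given vehicle, and wild-type mice (WT, C57BL/6 x C3H) given vehicle. Shank3 is a scaffold protein of the postsynaptic density, and both Shank3 groups carry the same mutation on 1 allele. No dose, treatment length or sex is given in the sources used here. The comparisons asked how the mutation, and the inhibitor in mutant mice, changed the cortical transcriptome.

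Between 14133834 and 28646960 reads per library were assigned to genes, and the members held 0.301% to 0.389% of them. Shank3 itself had 159 and 148 normalised read counts (TMM-scaled CPM, reads relative to library size) in GSK-LSD1 mice, 146 and 174 in mutant vehicle mice and 153 and 160 in WT vehicle mice; a count over the whole gene also takes reads from outside the deleted part and therefore does not check the allele. Excitatory neuron markers, the defining cells of cortex, were all detected, with a summed level of 4421 to 5246 CPM in GSK-LSD1 mice, 4936 to 5044 in mutant vehicle mice and 5835 to 5909 in WT vehicle mice. All 37 genes of the mitochondrial genome had 0 reads in every library.

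The small subunit reads the mRNA, and the large subunit holds the centre that joins amino acids and the tunnel through which the new chain leaves. Mammalian ribosomal protein mRNAs are short, abundant and begin with a run of pyrimidines, the terminal oligopyrimidine (TOP) tract, through which mTORC1 and the RNA-binding protein Larp1 control their translation. In neurons, ribosomes and these mRNAs also lie in dendrites and axons, where synaptic proteins are made locally. The family is known for the many processed pseudogenes it has left in mammalian genomes, intronless copies of its mRNAs inserted elsewhere.

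The coding sequences show how closely the members and such copies resemble each other. Rps29 encodes a small zinc-binding protein of the small subunit, and the processed pseudogene Gm14303 carries its 168-base coding sequence, without the stop codon, with 0 mismatches. Gm14303 received 29268 reads over the 6 libraries and Rps29 received 534. Rps27, which encodes another zinc-binding protein of the small subunit, gives the same picture and has a true paralog for contrast. Its 252-base coding sequence (chr3:90212522-90213651, minus strand, GRCm38) is identical in Rps27rt on chromosome 9, which lies in an intron of Osbpl10 on the other strand, and the paralog Rps27l, also on chromosome 9 (chr9:66946086-66949516, plus strand), differs from it at 60 positions, given in capitals:
Rps27: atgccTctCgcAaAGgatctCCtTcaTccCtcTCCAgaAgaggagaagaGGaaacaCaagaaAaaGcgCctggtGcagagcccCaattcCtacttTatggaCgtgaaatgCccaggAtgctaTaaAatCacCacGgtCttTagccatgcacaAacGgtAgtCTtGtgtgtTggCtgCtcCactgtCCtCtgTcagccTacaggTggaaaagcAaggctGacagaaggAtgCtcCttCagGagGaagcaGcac
Rps27l: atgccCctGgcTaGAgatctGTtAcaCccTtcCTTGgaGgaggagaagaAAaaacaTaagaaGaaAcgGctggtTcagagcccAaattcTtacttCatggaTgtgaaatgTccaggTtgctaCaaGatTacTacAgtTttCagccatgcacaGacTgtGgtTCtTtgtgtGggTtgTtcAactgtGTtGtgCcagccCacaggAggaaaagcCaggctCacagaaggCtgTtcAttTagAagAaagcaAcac
Rps27rt received 8283 reads and Rps27 received 310, while Rps27l had 658 reads of its own.

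Rps21, a small-subunit protein needed for maturation of that subunit, is shown beside its most read copy because it had the smallest p of any member in the comparison of GSK-LSD1 mice with WT mice. Gm5963 lies on chromosome 16 (chr16:35573321-35573556, minus strand) and matches 248 bases of Rps21 (chr2:180257377-180258445, plus strand) with 7 mismatches and a gap of 12 bases, an identity of 92.3%. Capitals mark the bases that differ or are missing in the other sequence:
Rps21: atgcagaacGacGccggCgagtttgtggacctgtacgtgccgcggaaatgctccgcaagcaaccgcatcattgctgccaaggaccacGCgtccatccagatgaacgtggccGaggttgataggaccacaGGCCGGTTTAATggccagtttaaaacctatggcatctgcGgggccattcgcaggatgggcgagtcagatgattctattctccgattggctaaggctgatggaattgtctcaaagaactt
Gm5963: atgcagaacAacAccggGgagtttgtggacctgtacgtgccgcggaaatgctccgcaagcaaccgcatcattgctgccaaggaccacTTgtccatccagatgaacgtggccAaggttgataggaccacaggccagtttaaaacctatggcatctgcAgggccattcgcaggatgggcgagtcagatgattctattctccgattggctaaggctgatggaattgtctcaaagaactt
Rps21 had 7111 reads and Gm5963 had 9522. Of the 50-base words of the Rps21 coding sequence, 45.5% also occur in another gene, against 100% for Rps29 and Rps27.

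Runs of pyrimidines were found near the annotated starts. RefSeq promoter windows (GRCm38.p6) were found for 55 of the 76 members, 66 windows in all. Within 20 bases before and 50 after the start, the longest run of C and T reached at least 8 bases in 71.2% of the members' windows, against 25.4% of all 32851 windows, with a median of 10 bases in members and 6 in all. The 5 members shown are those whose values are given in most detail below, each as 30 bases with the longest run in capitals:
Rps21 (chr2:180257399-180257428, plus strand): ggaggcacgagctaCTTCCTTTCTgcgctc
Rps19 (chr7:24884612-24884641, plus strand): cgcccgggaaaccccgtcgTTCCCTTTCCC
Rpl15 (chr14:18270969-18270998, minus strand): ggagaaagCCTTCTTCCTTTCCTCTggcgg
Rpl14 (chr9:120571501-120571530, plus strand): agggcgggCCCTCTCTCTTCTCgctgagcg
Rpl39 (chrX:37085173-37085202, minus strand): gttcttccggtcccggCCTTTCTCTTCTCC
The runs were 10, 11, 17, 14 and 14 bases long in that order. Those of Rps21, Rps19 and Rpl39 lie in the last 30 bases of the searched stretch, downstream of the annotated start. The runs of Rps19 and Rpl39 reach the end of that stretch and may be longer. A run within the stretch need not be a TOP tract, and its place relative to the start was not counted. In the whole 300-base windows, on either strand, the letters CCGGAAG (the core of ETS factor sites) occurred in 36.4% of the members' windows and 8.86% of all, and GGGCGG (the core of the SP1 site) in 60.6% and 35.7%. A match is a description of the letters and does not show that a factor binds there.

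Most reads of the family were not counted on the members. Genes of the annotation that matched a member's coding sequence at 90% identity or more over at least 50% of its length, and that had no introns or were annotated as pseudogenes, numbered 923, of which 903 are processed pseudogenes. Of these copies 583 had at least 1 read, and together they held 641429 reads, against 404981 on the 76 members. The members' share of the summed reads was 37.9% and 38.5% in GSK-LSD1 mice, 38.9% and 39.0% in mutant vehicle mice and 38.9% and 39.1% in WT vehicle mice, so the division of the sum was nearly the same in every library. For single members with copies the share moved between libraries by 0.33 points (Rps29) to 26.6 points (Rps23). That of Rpl10a lay between 2.85% and 6.58%. How the authors treated reads that align to several places is not given in the sources used here, and the values of any member with near-identical copies are uncertain for that reason.

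The division differed widely between members. For 48 of the 76, fewer than 50% of the reads of the member and its copies were on the member, and for 20 it was fewer than 10%. Rpl3, which lies near the peptidyl transferase centre, had 5557 reads, against 32641 on the processed pseudogene Rpl3-ps1 on the X chromosome. Rps6, the classic substrate of S6 kinase, had 849 reads, against 11074 on Rps6-ps4, a pseudogene with the identical coding sequence. Rpl35, at the exit of the tunnel, held 0.973% of the reads of its family. In contrast, no copy was found for Rps3 and Rpl8, and Rpl15 held 94.6% of its family's reads although it has 19 annotated copies. The 103 copies with 500 reads or more held 97.8% of all copy reads. Of these, 79 are not contained in another protein-coding gene, and 24 lie in introns of a gene that contains them. None (0) overlap an exon of a protein-coding gene that contains them. A copy that overlaps a protein-coding gene only in part was counted among the 79.

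**Figure D1:**
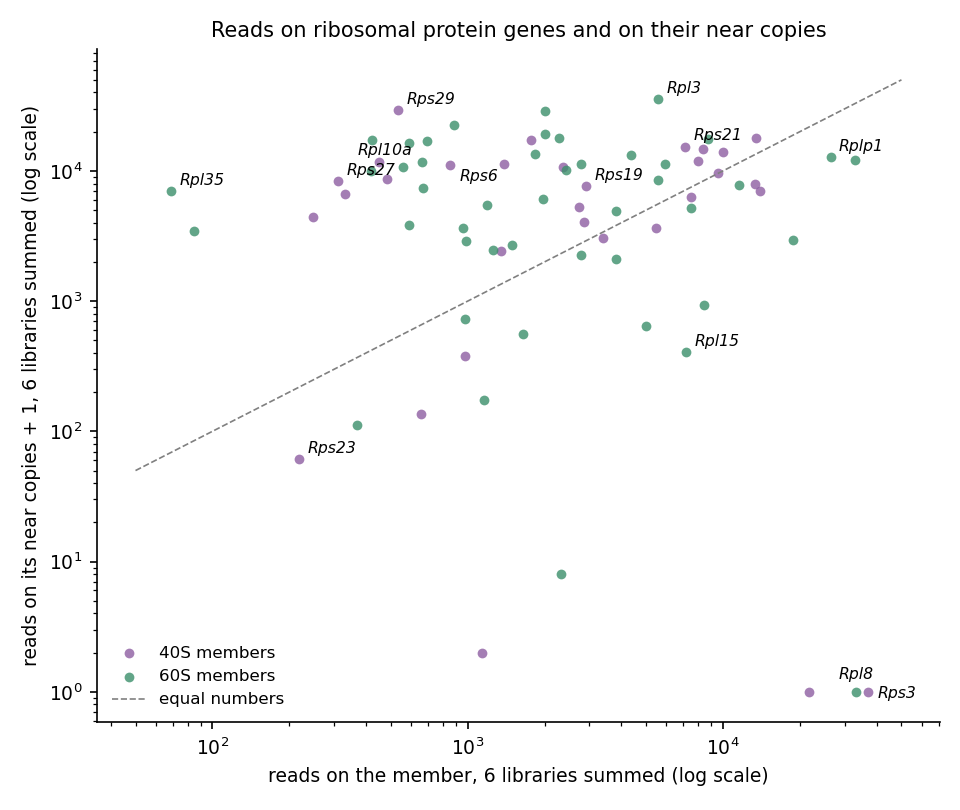
Reads counted on each of the 76 members (x axis, log scale) and on its near copies plus 1 (y axis, log scale), summed over the 6 libraries, with 40S members in purple and 60S members in green. Points above the dashed line, such as Rps29 with 534 own reads, have more reads on copies than on the member, and Rps3 and Rpl8 lie at the bottom with 0 copy reads.

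Levels within the family, compared as mean CPM per kb of exonic length over the 6 libraries, covered an 888-fold range. Rplp1, an acidic protein of the stalk that recruits elongation factors, was highest at 430 CPM per kb, followed by Rpl8 at 198, Rps15 at 181 and Rpl4 at 131. The lowest were Rpl35 at 0.484 CPM per kb, Rps13 at 0.762, Rpl23a at 0.866 and Rpl12 at 0.947. The mature ribosome holds most of its proteins in equal numbers, and the stalk proteins Rplp1 and Rplp2 in more. Rplp2, the partner of Rplp1 in the stalk, stood at 9.17 CPM per kb.

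The level was lower where a member shares more sequence with other genes. Of the 50-base words of a member's coding sequence, a median of 92.3% also occurred in a transcript of another gene; for 28 members all did. The 12 members with fewer than 50% shared words had a median of 64.9 CPM per kb (range 6.54 to 198), the other 64 a median of 7.20, and the 28 with every word shared a median of 3.76 (range 0.762 to 129.6). Across the 76 members the Spearman correlation of the shared percentage with the log2 level was -0.63, as a description only, since the members share the same libraries. Counting the copies' reads with the member and dividing by the length of a single mRNA gave a ratio of 13.1 between the upper and lower decile of members, against 36.8 with own reads over the same length. Rps29, for example, stood at 11.03 CPM per kb of mRNA on its own reads and at 621 with its copies, and Rpl35 at 0.635 and 60.8.

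**Figure D2:**
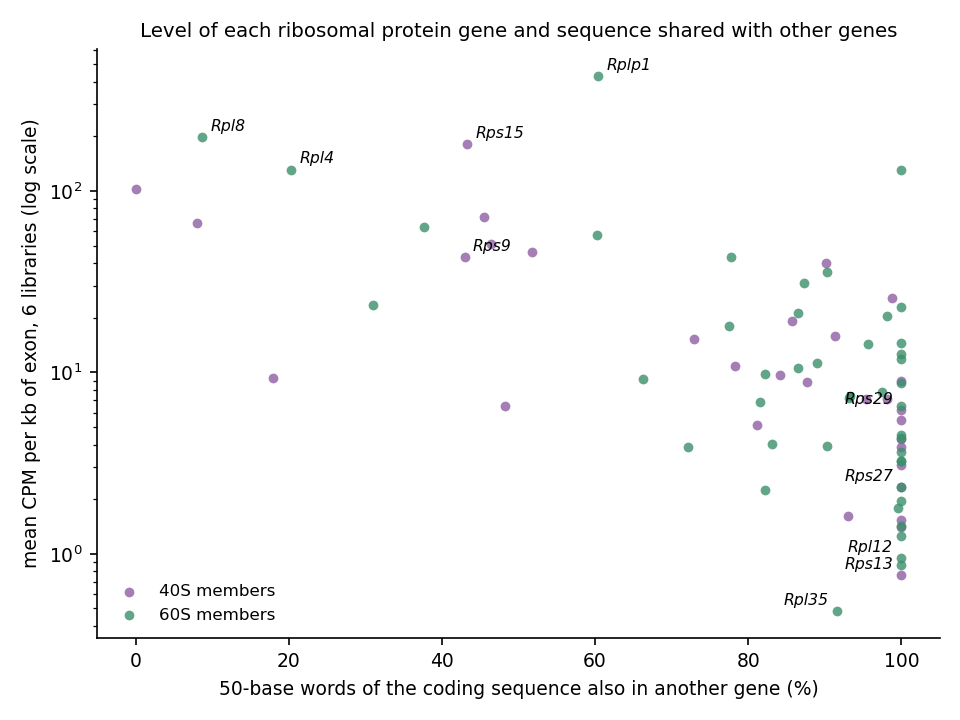
Mean level of each member over the 6 libraries, in CPM per kb of exon (y axis, log scale), against the percentage of the 50-base words of its coding sequence that also occur in another gene (x axis). Members with few shared words, such as Rpl8 and Rpl4, lie in the upper part, and the lowest member, Rpl35, has 91.6% of its words shared; Rps13, Rpl23a and Rpl12, the next in level, have every word shared.

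The family as a whole was highest in 1 library of the GSK-LSD1 group. The members summed to 3302 and 3744 CPM in GSK-LSD1 mice, 3329 and 3049.5 CPM in mutant vehicle mice and 3174 and 3111 CPM in WT vehicle mice. GSK-LSD1 library 2 lay above all others, whereas GSK-LSD1 library 1 lay below mutant vehicle library 1. The group means were 3523 ± 312 CPM in GSK-LSD1 mice, 3189 ± 198 in mutant vehicle mice and 3142 ± 44.3 in WT vehicle mice (SD, n = 2 each); with 2 against 2 libraries an exact permutation test cannot go below p = 0.33, so no test of this sum was made. With copy reads included the sums were 8712 and 9725 CPM in GSK-LSD1 mice, 8550.2 and 7820.05 in mutant vehicle mice and 8161 and 7967 in WT vehicle mice, and the GSK-LSD1 libraries then lay above the other 4.

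Member by member, GSK-LSD1 library 2 was the highest of the 6 libraries for 49 of the 76 members, or 64.5%, against 21.1% of all tested genes. The median over members of the log2 level, centred on each gene's mean over the 6 libraries, was 0.00 and 0.21 in GSK-LSD1 mice, 0.02 and -0.09 in mutant vehicle mice and -0.03 and -0.07 in WT vehicle mice, while the median over all tested genes stayed between -0.01 and 0.01. The small-subunit members had centred medians of 0.03 and 0.26 in GSK-LSD1 mice, -0.01 and -0.12 in mutant vehicle mice and -0.04 and -0.10 in WT vehicle mice. The large-subunit members had -0.04 and 0.15 in GSK-LSD1 mice, 0.05 and -0.08 in mutant vehicle mice and -0.01 and -0.06 in WT vehicle mice.

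**Figure D3:**
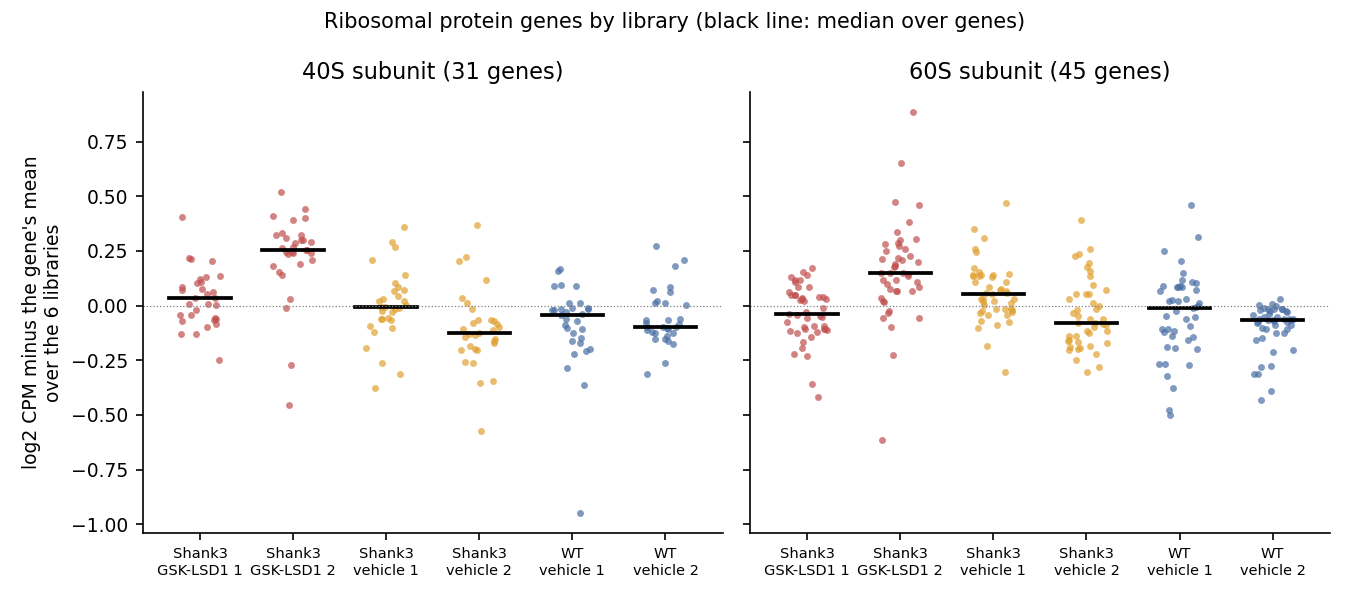
Log2 CPM of each member minus its mean over the 6 libraries (y axis) in every library (x axis), for 31 small-subunit genes (left) and 45 large-subunit genes (right), with the median as a black line. The points of GSK-LSD1 library 2 lie mostly above 0 in both panels, with medians of 0.26 and 0.15, and the other 5 libraries have medians between -0.12 and 0.05.

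That library also differed from GSK-LSD1 library 1 in markers of other cell types and tissue. The 12 oligodendrocyte markers summed to 2502 and 5869 CPM in GSK-LSD1 mice, 6172 and 6224 CPM in mutant vehicle mice and 2708 and 2459 CPM in WT vehicle mice. The 10 hypothalamus and septum markers, of which 3 were abundant enough to be tested, summed to 26.5 and 70.4 CPM in GSK-LSD1 mice, 18.4 and 35.8 in mutant vehicle mice and 20.5 and 18.5 in WT vehicle mice. The 6 choroid plexus markers, 4 of them tested, summed to 246 and 289.6 CPM in GSK-LSD1 mice, 233 and 285 in mutant vehicle mice and 226 and 243 in WT vehicle mice. The centred log2 medians of the 4 tested markers differed more. They were -0.47 and 1.22 in GSK-LSD1 mice, -0.47 and 0.47 in mutant vehicle mice and -0.67 and -0.16 in WT vehicle mice. Kl, of the choroid plexus list, rose in GSK-LSD1 mice relative to WT mice (log2 fold change 1.32 ± 0.26, edgeR adjusted p = 0.0135). No marker of these 3 lists was at 0 in all libraries, and the part of hypothalamus, septum and choroid plexus tissue in the ribosomal protein values was not tested. In bulk tissue, fewer cells of a type and less RNA per cell cannot be told apart. Treating the oligodendrocyte marker level as a covariate turned the median log2 fold change of the members between mutant vehicle and WT mice to -0.13, and raised that between GSK-LSD1 and mutant vehicle mice to 0.23. Between GSK-LSD1 and WT mice the covariate lowered the median to 0.10 with 53 of 76 positive, against 0.19 with 63 positive without it.

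In mutant mice, GSK-LSD1 was set against vehicle. None of the 76 members was called by edgeR's quasi-likelihood test at an adjusted p of 0.05, where 0.107% of all 18705 tested genes were called (0.102% higher and 0.00535% lower); DESeq2 and limma-voom also called 0. Without passing the test, 63 of 76 had a positive log2 fold change, against 49.9% of all genes, with a median of 0.13 against -0.00 for all genes. At an unadjusted p under 0.05, 6 members were higher and 1 was lower, where 3.18% and 2.52% of all genes were. Treated and vehicle libraries were fully separated for 20 members that were higher and 7 that were lower in GSK-LSD1 mice, against 17% and 16.6% of all genes. Small-subunit members had a median log2 fold change of 0.19, with 28 of 31 positive, and large-subunit members 0.08, with 35 of 45 positive.

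The small-subunit gene with the smallest p was Rps19, which is needed to mature the small subunit and is mutated in human Diamond-Blackfan anaemia. Rps19 had 25.9 and 32.2 CPM in GSK-LSD1 mice, against 22.6 and 18.5 CPM in mutant vehicle mice. Both treated libraries lay above both vehicle libraries, by a log2 fold change of 0.49 ± 0.15 (SE; edgeR adjusted p = 0.499). Rps21 had 62.0 and 71.5 CPM in GSK-LSD1 mice and 55.1 and 52.9 CPM in mutant vehicle mice (log2 fold change 0.30 ± 0.11, edgeR adjusted p = 0.716). Rps14, a platform protein of the small subunit, had 115 and 129.8 CPM in GSK-LSD1 mice and 102 and 99.2 CPM in mutant vehicle mice (0.28 ± 0.10 on the log2 scale, edgeR adjusted p = 0.760).

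Rps15 shares less of its coding sequence with other genes than most members do, 43.3% of the 50-base words. Rps15, which reaches toward the decoding site, had 116 and 135 CPM in GSK-LSD1 mice and 113 and 98.9 CPM in mutant vehicle mice (0.25 ± 0.11 on the log2 scale, edgeR adjusted p = 0.851). For Rps15 the distance between the treated libraries was about as large as the distance between the groups. Rps3 and Rpl8, for which no copy was found, had log2 fold changes of 0.15 ± 0.11 and 0.17 ± 0.11 (SE). Rps3, at the channel where mRNA enters, had 299 and 345 CPM in GSK-LSD1 mice and 298 and 282 CPM in mutant vehicle mice.

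Among large-subunit members the smallest p of those with a positive value was that of Rpl14, at 74.96 and 86.4 CPM in GSK-LSD1 mice and 69.3 and 62.9 CPM in mutant vehicle mice (log2 fold change 0.29 ± 0.11, edgeR adjusted p = 0.782). The most negative value belonged to Rpl10a, a protein of the L1 stalk at the exit of spent tRNA, with 4.37 and 2.73 CPM in GSK-LSD1 mice and 5.88 and 5.58 CPM in mutant vehicle mice (-0.66 ± 0.26 on the log2 scale, edgeR adjusted p = 0.786). Only 4.98% of the reads of Rpl10a and its copies were on Rpl10a itself, and with copy reads added its log2 fold change was 0.08. Rpl5, which with Rpl11 carries the smallest ribosomal RNA into the large subunit, had 4.11 and 5.79 CPM in GSK-LSD1 mice and 6.62 and 6.49 CPM in mutant vehicle mice, a log2 fold change of -0.42 ± 0.23 (SE; edgeR adjusted p = 0.929) that became 0.13 with copy reads added. The other 4 members with the smallest p among negative values, Rps15a, Rpl27, Rpl11 and Rpl12, ranged from -0.13 to -0.33. The median log2 fold change depended on single libraries of both groups. Without GSK-LSD1 library 2 it was 0.02 with 43 of 76 positive, and without GSK-LSD1 library 1 it was 0.23 with 60 positive. Without mutant vehicle library 2 it was 0.08 with 48 positive, and without mutant vehicle library 1 it was 0.20 with 62 positive.

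**Figure D4:**
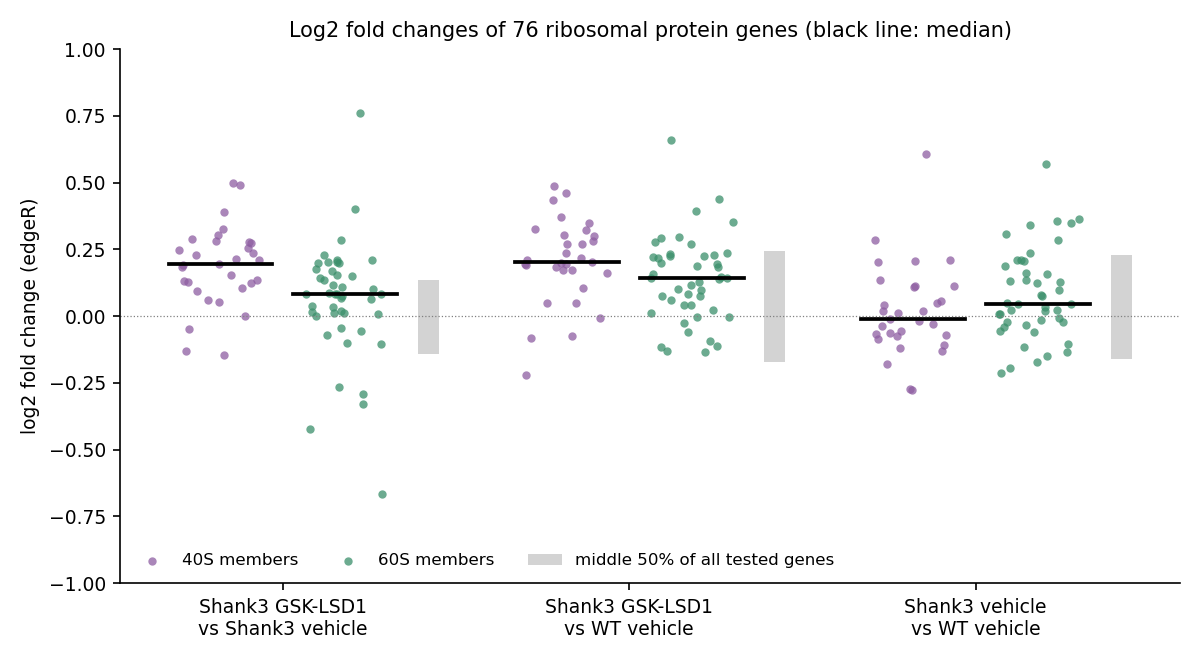
Log2 fold changes (edgeR, y axis) of the 31 small-subunit (purple) and 45 large-subunit (green) members in the 3 comparisons, with the median of each set as a black line and the middle 50% of all tested genes as a grey bar. In both comparisons of GSK-LSD1 mice the medians lie above 0, at 0.19 and 0.08 against mutant vehicle mice and at 0.20 and 0.14 against WT mice, and in the comparison of both vehicle groups they lie near 0, at -0.01 and 0.05.

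GSK-LSD1 mice were next set against WT vehicle mice, a comparison that spans both the mutation and the inhibitor and shares its libraries with the other 2. Again 0 of 76 members were called by edgeR, against 2.62% of all tested genes (0.636% higher and 1.99% lower), and 0 by DESeq2 and limma-voom; at an unadjusted p under 0.05, 7 were higher and 0 lower, where 7.11% and 8.62% of all genes were. A positive log2 fold change was found for 63 members, against 52.6% of all genes, with a median of 0.19 against 0.02. The groups did not overlap for 35 members that were higher and 2 that were lower in GSK-LSD1 mice, against 23.5% and 22.4% of all genes. The small-subunit median was 0.20 and the large-subunit median 0.14, with 27 of 31 and 36 of 45 positive.

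Rps21 had the smallest p, with 62.0 and 71.5 CPM in GSK-LSD1 mice and 54.8 and 51.9 CPM in WT vehicle mice, a log2 fold change of 0.32 ± 0.11 (SE; edgeR adjusted p = 0.140). Rpl39, a small protein lining the exit tunnel, had 34.003 and 31.6 CPM in GSK-LSD1 mice and 24.1 and 27.2 CPM in WT vehicle mice (0.35 ± 0.13 on the log2 scale, edgeR adjusted p = 0.160). Rpl15, a core protein of the large subunit, had 62.2 and 57.8 CPM in GSK-LSD1 mice and 43.4 and 54.0 CPM in WT vehicle mice (0.30 ± 0.12, edgeR adjusted p = 0.214). For these 3 genes every treated library lay above every WT library. Rps19 and Rpl14 had log2 fold changes of 0.37 and 0.27. Rps18 had the smallest p among negative values, at 23.6 and 17.8 CPM in GSK-LSD1 mice and 24.1 and 24.3 CPM in WT vehicle mice (-0.22 ± 0.16 on the log2 scale, edgeR adjusted p = 0.557). The other 5 by that rule, Rps15a, Rpl38, Rpl12, Rpl5 and Rpl27, lay between -0.08 and -0.13. Without GSK-LSD1 library 2 the members' median was 0.07 with 52 positive, and without GSK-LSD1 library 1 it was 0.27 with 66 positive.

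Between mutant and WT mice, both given vehicle, the family showed little change. Of the 76 members 0 were called by edgeR, where 1.27% of all tested genes were (0.278% higher and 0.994% lower), and 0 by DESeq2 and limma-voom. At an unadjusted p under 0.05, 3 were higher and 0 lower, where 5.81% and 8.24% of all genes were. The median log2 fold change was 0.02, the same as over all genes, and 45 of 76 were positive, against 52.3% of all genes. The groups did not overlap for 15 members that were higher and 7 that were lower in mutant mice, where 23.1% of all genes were in each direction. The small-subunit median was -0.01 with 15 of 31 positive, and the large-subunit median 0.05 with 30 of 45 positive.

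Rpl15 had the smallest p of this comparison, with 62.0 CPM in both mutant vehicle libraries and 43.4 and 54.0 CPM in WT vehicle libraries (log2 fold change 0.34 ± 0.12, edgeR adjusted p = 0.169). Rpl39 had 31.4 and 34.1 CPM in mutant vehicle mice and 24.1 and 27.2 CPM in WT vehicle mice (0.35 ± 0.12, edgeR adjusted p = 0.192). Rpl15 and Rpl39 thus lay at similar levels in both mutant groups and below them in WT mice. Rpl10a had 5.88 and 5.58 CPM in mutant vehicle mice and 3.49 and 4.16 CPM in WT vehicle mice (0.57 ± 0.26, edgeR adjusted p = 0.333). With copy reads added and GSK-LSD1 library 2 left out, a library in neither of these groups, its difference was -0.00. Rps27 had 2.71 and 3.04 CPM in mutant vehicle mice and 1.16 and 2.46 CPM in WT vehicle mice (0.61 ± 0.36, edgeR adjusted p = 0.484), resting on 310 reads over all libraries. Rpl9 had a log2 fold change of 0.36.

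On the negative side, Rps18, a head protein of the small subunit, had 22.2 and 18.0 CPM in mutant vehicle mice and 24.1 and 24.3 CPM in WT vehicle mice (log2 fold change -0.27 ± 0.16, edgeR adjusted p = 0.468). The stalk protein Rplp1, the member with the highest level, had 201 and 191 CPM in mutant vehicle mice and 227 and 214 CPM in WT vehicle mice (-0.17 ± 0.10, edgeR adjusted p = 0.507). Both genes were lower in each mutant vehicle library than in each WT library by less than the test could separate. Rps14, Rps19 and Rpl17 had log2 fold changes of -0.09, -0.12 and -0.19.

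**Figure D5:**
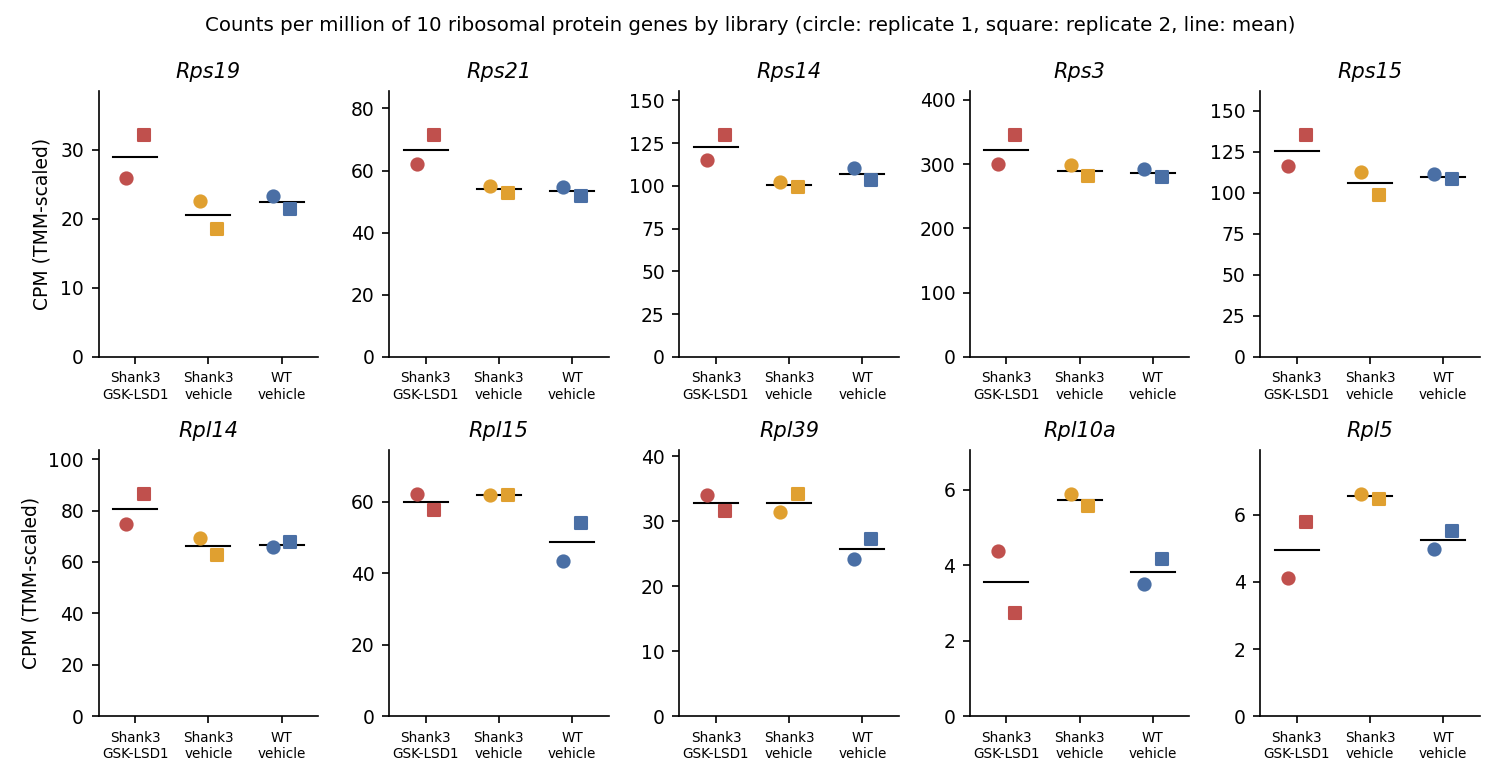
CPM of 10 members in each library (y axis, from 0), with circles for replicate 1, squares for replicate 2 and a line at the group mean, for GSK-LSD1, mutant vehicle and WT vehicle mice. Rps19, Rps21, Rps14, Rps3, Rps15 and Rpl14 have their highest value in GSK-LSD1 library 2, Rpl15 and Rpl39 are lowest in WT mice, and Rpl10a and Rpl5 are highest in mutant vehicle mice.

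Members with particular roles were followed across all groups. Rps6 had 7.93 and 7.49 CPM in GSK-LSD1 mice, 5.93 and 7.39 in mutant vehicle mice and 6.23 and 6.11 in WT vehicle mice, with log2 fold changes of 0.21 ± 0.21 for the inhibitor and 0.11 ± 0.21 for the mutation (SE). Rpsa, a small-subunit protein also known as a laminin receptor, had 82.0 and 96.6 CPM in GSK-LSD1 mice, 82.7 and 74.3 in mutant vehicle mice and 81.0 and 74.8 in WT vehicle mice. Rplp0, the base of the stalk, had 93.7 and 116 CPM in GSK-LSD1 mice, 94.6 and 86.4 in mutant vehicle mice and 93.8 and 84.6 in WT vehicle mice. Rpsa and Rplp0 thus shared the pattern of the family, with the top value in GSK-LSD1 library 2 and the other 5 libraries close together.

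Rpl22, which mice can lose because its paralog Rpl22l1 takes its place, was the steadiest of these genes, at 69.3 and 68.9 CPM in GSK-LSD1 mice, 69.2 and 67.3 in mutant vehicle mice and 69.2 and 65.3 in WT vehicle mice. Rps4x, the X-linked gene of its protein, had 60.8 and 79.6 CPM in GSK-LSD1 mice, 66.0 and 62.2 in mutant vehicle mice and 63.0 and 60.2 in WT vehicle mice. Rps4l, its autosomal relative, had 11.4 and 6.27 CPM in GSK-LSD1 mice, 9.51 and 7.75 in mutant vehicle mice and 7.46 and 10.4 in WT vehicle mice, so that its replicates differed by more than its groups. Rpl10, which takes part in subunit joining, had 8.90 and 12.7 CPM in GSK-LSD1 mice, 9.05 and 9.61 in mutant vehicle mice and 6.43 and 9.18 in WT vehicle mice. Rps27a, made as a fusion with ubiquitin, had log2 fold changes of 0.09 ± 0.20 for the inhibitor and 0.21 ± 0.20 for the mutation, Rps27l 0.24 ± 0.24 and 0.11 ± 0.24, and Rplp2 0.20 ± 0.15 and 0.03 ± 0.15 (SE).

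The members whose replicates differed most were Rpl35, Rps23, Rps4l and Rpl23a, with mean absolute log2 differences of 0.71, 0.56, 0.54 and 0.54 between the libraries of a group. Rps23, a protein of the decoding centre, had 1.44 and 2.32 CPM in GSK-LSD1 mice, 2.25 and 1.13 in mutant vehicle mice and 1.71 and 1.84 in WT vehicle mice. Rpl23a, beside the tunnel exit, had 0.636 and 1.36 CPM in GSK-LSD1 mice, 0.598 and 0.544 in mutant vehicle mice and 0.753 and 0.506 in WT vehicle mice, and its log2 fold change of 0.76 ± 0.64 (SE) for the inhibitor was the highest of the family. At 85 reads in all, no difference was detectable for it at this depth. Over the whole family, log2 fold changes ran from -0.66 to 0.76 between GSK-LSD1 and mutant vehicle mice, from -0.22 to 0.66 between GSK-LSD1 and WT vehicle mice, and from -0.28 to 0.61 between mutant and WT vehicle mice.

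The near copies were also tested as genes of their own. Of the 923 copies 161 had enough reads to be tested, a selection by abundance. Between GSK-LSD1 and mutant vehicle mice 0 of them were called by edgeR, DESeq2 or limma-voom, their median log2 fold change was 0.17, 129 were positive, and at an unadjusted p under 0.05 26 were higher and 0 lower, where 3.18% and 2.52% of all tested genes were and 49.9% of all genes were positive. Between mutant and WT vehicle mice 0 were called by edgeR, 1 as higher by DESeq2 and 1 as lower by limma-voom. Of all 18705 tested genes, DESeq2 called 131 as higher and 471 as lower, and limma-voom 36 and 101. The copies had a median of 0.04 and 97 were positive, against 52.3% of all genes. At an unadjusted p under 0.05, 3 of them were higher and 1 lower, where 5.81% and 8.24% of all genes were. Between GSK-LSD1 and WT vehicle mice the median was 0.21, 132 were positive, against 52.6% of all genes, and 2 were called as higher, against 0.636% of all tested genes. DESeq2 and limma-voom each called 2 copies as higher too, where they called 160 and 80 of all 18705 tested genes as higher. At an unadjusted p under 0.05, 37 were higher and 0 lower, where 7.11% and 8.62% of all genes were.

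The 2 called copies were Gm6472, a copy of Rps7 on the X chromosome, and Rpsa-ps10, a copy of Rpsa. Rpsa-ps10 had 105.4 and 105.7 CPM in GSK-LSD1 mice, 81.4 and 85.6 CPM in mutant vehicle mice and 80.02 and 77.3 CPM in WT vehicle mice. It rose in GSK-LSD1 mice relative to WT mice by 0.42 ± 0.10 on the log2 scale (SE; edgeR adjusted p = 0.0314), and both treated libraries lay apart from the other 4. Gm6472 had 138 and 129 CPM in GSK-LSD1 mice, 137 and 118 CPM in mutant vehicle mice and 104 and 82.8 CPM in WT vehicle mice. It rose in GSK-LSD1 mice relative to WT mice by 0.52 ± 0.12 (SE; edgeR adjusted p = 0.0284), and lay at similar levels in both mutant groups. DESeq2 and limma-voom called both genes as well, but neither call stood when either WT library or either GSK-LSD1 library was left out, with edgeR adjusted p from 0.0549 to 0.250 for both genes over those 4 settings. Without mutant vehicle library 1 the adjusted p of Rpsa-ps10 was 0.0539. Rps7 itself had 9.36% of its family's reads, and Rpsa 41.8%.

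Another copy of Rps7, the processed pseudogene Gm9493, differed between the GSK-LSD1 libraries by more, as a fold, than Gm6472 did between groups. It is 99.5% identical to Rps7 and lies at chr19:23619749-23620319 (GRCm38, plus strand), in an intron of 1700028P14Rik on the opposite strand. Gm9493 had 5.81 and 29.7 CPM in GSK-LSD1 mice, 5.01 and 9.34 CPM in mutant vehicle mice and 29.4 and 45.2 CPM in WT vehicle mice. Its log2 fold change was -1.13 ± 0.94 between GSK-LSD1 and WT mice and -2.39 ± 0.99 between mutant vehicle and WT mice (SE; edgeR adjusted p = 0.681 and 0.447), opposite in sign to the values of Gm6472. With Rps7 and its copies summed, the level was 157 and 177 CPM in GSK-LSD1 mice, 157 and 140.2 CPM in mutant vehicle mice and 148 and 142 CPM in WT vehicle mice. The sum was not called: its log2 fold change was 0.21 ± 0.11 between GSK-LSD1 and WT mice (SE; edgeR adjusted p = 0.366) and 0.04 ± 0.11 between mutant vehicle and WT mice (edgeR adjusted p = 0.927). The part of Gm9493 reads in the call of Gm6472 was not tested.

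Because reads of nearly identical genes can fall on either, the comparison was repeated with the reads of each copy added to its member, which was decided on with the values known. No summed member was called by edgeR in any comparison, where 0.108% (GSK-LSD1 against mutant vehicle), 0.62% (GSK-LSD1 against WT) and 0.286% (mutant against WT) of all tested genes were called as higher and 0.00539%, 1.95% and 1% as lower. At an unadjusted p under 0.05, 19, 26 and 3 summed members were higher and 0, 0 and 0 lower in that order, where 3.13%, 7.09% and 5.84% of all tested genes were higher and 2.53%, 8.61% and 8.3% lower. The median log2 fold change was 0.17, 0.21 and 0.04, and 71, 71 and 54 of 76 were positive. Rps13, whose own reads are 5.32% of its family's, had the smallest p, with 42.4 and 44.4 CPM in GSK-LSD1 mice and 31.3 and 32.8 CPM in WT vehicle mice after summing (log2 fold change 0.44 ± 0.12, edgeR adjusted p = 0.0606). Without GSK-LSD1 library 2 the medians of the sums were 0.09 between GSK-LSD1 and mutant vehicle mice and 0.13 between GSK-LSD1 and WT vehicle mice.

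The other genes of the translation machinery held few calls. Of 77 tested genes for mitochondrial ribosomal proteins, which build the separate ribosome of that organelle, 0 were called in any comparison by edgeR. Their median log2 fold changes were 0.06 for the inhibitor, 0.14 for GSK-LSD1 mice against WT mice and 0.06 for the mutation. At an unadjusted p under 0.05 (edgeR), 0, 6 and 4 were higher in that order, where 3.18%, 7.11% and 5.81% of all tested genes were. Lower were 0, 0 and 1, where 2.52%, 8.62% and 8.24% of all genes were. Between GSK-LSD1 and WT mice 64 of the 77 were positive, against 52.6% of all genes. The groups did not overlap for 36 that were higher and 5 that were lower, where 23.5% and 22.4% of all genes were. In the other 2 comparisons 48 (GSK-LSD1 against mutant vehicle) and 54 (mutant against WT) were positive, against 49.9% and 52.3% of all genes. The 23 other TOP mRNAs, such as those of elongation factors, had medians of 0.06, 0.08 and 0.03 in the same order, and the 71 ribosome biogenesis factors 0.03, 0.01 and -0.03. Among 36 initiation factors 1 was called: Eif4g3, a scaffold of the cap-binding complex, fell relative to WT mice in GSK-LSD1 mice (log2 fold change -0.72 ± 0.11, edgeR adjusted p = 0.00475) and in mutant vehicle mice (-0.54 ± 0.11, edgeR adjusted p = 0.0309). In these 2 comparisons 1.99% and 0.994% of all tested genes were called as lower. Of 26 regulators of ribosomal protein synthesis, Larp1, which binds the TOP tract, fell in GSK-LSD1 mice relative to WT mice (-0.47 ± 0.10, edgeR adjusted p = 0.0219), where 1.99% of all tested genes were called as lower. The list drawn up for these regulators also held Tiam1, which is not an established regulator of ribosomal protein synthesis. Its tested genes had a median log2 fold change of -0.08 with 8 of 26 positive between GSK-LSD1 and mutant vehicle mice, -0.12 with 7 positive between GSK-LSD1 and WT mice, and -0.05 with 11 positive between mutant and WT mice.

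Ribosomal protein mRNAs are short, and the values of short genes as a class were set beside theirs. The members' median exonic length was 1.78 kb, against 3.79 kb for all tested genes with an annotation. Among the 13782 annotated genes with a mean log2 CPM above 1, members included, the 2314 under 2 kb had median log2 fold changes of 0.07 between GSK-LSD1 and mutant vehicle mice, 0.12 between GSK-LSD1 and WT vehicle mice and 0.04 between mutant and WT vehicle mice, against -0.00, -0.02 and -0.02 for longer ones. The 70 subunits of the respiratory chain, another set of short abundant mRNAs, had medians of 0.10, 0.25 and 0.14 in that order. Of these, 63, 69 and 63 were positive, against 49.9%, 52.6% and 52.3% of all genes. At an unadjusted p under 0.05 (edgeR), 4, 37 and 10 were higher, where 3.18%, 7.11% and 5.81% of all genes were. Lower were 0 in each comparison, where 2.52%, 8.62% and 8.24% of all genes were. Only Ndufa4 was called, in GSK-LSD1 mice against WT mice (0.43 ± 0.11, edgeR adjusted p = 0.0438), where 0.636% of all genes were called as higher. After each library was corrected for gene length and GC content, the members' medians were 0.09, 0.11 and -0.00, with 54, 54 and 36 of 76 positive.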

How the data were processed

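The authors deposited a table of raw read counts per gene for each library. Per the labels' protocols, strand-specific libraries were made from ribosomal-RNA-depleted total RNA of biological duplicates and sequenced on an Illumina HiSeq. Per the submitters' processing notes, cutadapt, TopHat2, SAMtools, featureCounts and edgeR were used with mm10 (GRCm38); no versions, strand setting or handling of reads with several alignments is given in the sources used here.

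The deposited counts were tested in R 4.3.3 with edgeR 4.0.16 (filterByExpr, TMM, robust quasi-likelihood fit of all 6 libraries in 3 groups, two-sided, Benjamini-Hochberg over 18705 genes within each comparison, threshold 0.05). The fit has 3 residual degrees of freedom and a common biological coefficient of variation of 11.5%. Standard errors were derived as the absolute log2 fold change over the root of the F statistic. CPM are scaled by TMM. DESeq2 1.42.0 and limma 3.58.1 (voom) were alternatives, besides other scalings, filters, a replicate block, corrections and leaving out each library. Exonic lengths, copies (blastn 2.17.0 against GENCODE vM21 transcripts) and 50-base words come from the GRCm38 annotation.

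The members, gene lists and tests were chosen with earlier results of these data known. Genes given in full are, by comparison, the 6 members per direction with the smallest p, and the 4 highest, 4 lowest, 4 least repeatable and 4 least read members, and representatives of subunit classes. Some items that this rule takes are not reported here. The 26 symbols that read as calendar dates in the deposited tables hold at most 0.298% of reads per library and stayed in the tests. Replicate libraries were distinct: a chi-square test of their counts gave 9.54 to 12.7 per degree of freedom. Counting error at the depth of each library sets a floor: 3 counts correspond to 0.105 to 0.212 CPM.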

Additional observations from a re-analysis of the deposited data

How the results depend on the processing

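The count of members called was 0 in all 3 comparisons under every alternative run: DESeq2 size factors, upper quartile scaling, library size alone, TMM without the members, other low-count filters, DESeq2, limma-voom, a fit that is not robust, only the 4 libraries compared, 20 abundant genes left out, length and GC correction, the oligodendrocyte covariate, each library left out, and copy reads added. Replicate numbers did not pair the libraries (correlations of deviations -0.050, -0.058 and 0.076); with the replicate block the member calls were 0 and the medians 0.13 (GSK-LSD1 against mutant vehicle), 0.19 (GSK-LSD1 against WT) and 0.02 (mutant against WT). With the oligodendrocyte covariate the members' median was 0.23 for GSK-LSD1 against mutant vehicle and -0.13 for mutant against WT, and for GSK-LSD1 against WT it was 0.098 with 53 positive, against 63 without the covariate. With single libraries left out it ranged from 0.019 to 0.23 for GSK-LSD1 against mutant vehicle, from 0.070 to 0.27 for GSK-LSD1 against WT and from -0.038 to 0.072 for mutant against WT. With library size alone the summed level in WT mice was 3029 CPM. Depth limits the members with few reads, such as Rpl35 with 69 and Rpl23a with 85.

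Signs of single uncalled genes turned as follows, and the cause was not tested. With copy reads added, log2 fold changes for GSK-LSD1 against mutant vehicle became 0.078 for Rpl10a, 0.17 for Rpl11, 0.16 for Rpl12, 0.13 for Rpl5 and 0.024 for Rps15a, and for GSK-LSD1 against WT 0.24 for Rpl12, 0.11 for Rpl38, 0.24 for Rpl5 and 0.048 for Rps15a. With copy reads added and GSK-LSD1 library 2 left out they became 0.061 for Rpl10a, 0.15 for Rpl11, 0.089 for Rpl12 and 0.086 for Rpl5 against mutant vehicle, 0.16 for Rpl12, 0.011 for Rpl38, 0.20 for Rpl5, 0.00058 for Rps15a and 0.038 for Rps18 against WT, and -0.00089 for Rpl10a in mutant against WT mice. The oligodendrocyte covariate gave -0.17 for Rpl9 and 0.054 for Rps18 in mutant against WT mice, and library size alone 0.00017 for Rps15a in GSK-LSD1 against WT mice. With single libraries left out, values for GSK-LSD1 against WT ranged from -0.41 to 0.17 for Rpl27, from -0.35 to 0.074 for Rpl38 and from -0.36 to 0.12 for Rpl5, those for mutant against WT from -0.28 to 0.019 for Rps19, and those for GSK-LSD1 against mutant vehicle from -0.039 to 0.19 for the copy Gm6472.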
